A study of Mus musculus with 24 samples.

Results

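The synaptic vesicle release machinery of the PFC was followed through 66 genes of 14074 in the table of normalized counts. They were chosen by gene symbol alone: the Vamp, syntaxin (Stx), Snap, Stxbp, complexin (Cplx), synaptotagmin (Syt), Unc13, Rims, Rab3, synapsin (Syn1 to Syn3) and Sv2 families. Of the 14060 genes tested, 66 were members, and the member with the fewest reads had 20 in its lowest library. The authors kept only genes above a minimum read count in each sample. Family members with fewer reads may therefore be absent from the table, and losses to low counts cannot be seen here. The study compared adult male C57BL/6 mice in 6 groups of 4, with 1 library per mouse. Control animals had not been defeated, and the stressed animals had gone through 30 days of chronic social defeat by aggressive CD1 males. The stressed mice were divided into passive coping (PS) and active coping (AS) animals by clustering of their behaviour, so the phenotypes were observed and not assigned. In each phenotype 4 mice received saline and 4 received the glucocorticoid receptor agonist dexamethasone (DEX, 2 mg/kg), and the PFC was taken 6 h later.

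Release of transmitter begins when a vesicle docks at the active zone, where Rab3 on the vesicle and Rims on the membrane meet and Unc13 proteins prime the vesicle. The v-SNARE Vamp2 then zips with the target-membrane SNAREs of the syntaxin family, such as Stx1a, and Snap25, under the hold of SM (Sec1/Munc18) proteins and of complexins, until calcium binds the synaptotagmins and the membranes fuse. Synapsins keep the reserve of vesicles, and Sv2 proteins are vesicle membrane glycoproteins. Several relatives that share these names serve other membranes: Stx5a and Stx18 act between endoplasmic reticulum and Golgi, Vamp8 and Stx7 in endosomes, and Snap91 is a clathrin adaptor that matched by its symbol only.

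The libraries held 21121869 to 59439645 reads on genes, with medians of 37876626 in DEX-treated AS, 34242531.5 in saline-treated AS and 22869703 to 24187702 in the other 4 groups. As a check of the DEX labels, the glucocorticoid target Tsc22d3 (GILZ) had log2 fold changes of 1.11 in PS and 1.08 in AS animals, and Sgk1 of 0.67 in controls. Pyramidal markers (11 of 11 in the table) and GABAergic markers (10 of 10) were present in all libraries, with summed normalized counts of 217161 to 293877 and 20277 to 32929. In each group 1 library had the most Dlx1 (a transcription factor of GABAergic neurons), namely saline-treated control mouse 117, DEX-treated control 122, saline-treated PS 2, saline-treated AS 14, DEX-treated PS 34 and DEX-treated AS 38. Every group has such a library by definition, and their Dlx1 ran from 823 (DEX-treated AS 38) to 2305 normalized counts (saline-treated control 117). Results were also computed without these 6 libraries, which takes 1 mouse from each group. Whether calls lost in that setting depend on Dlx1 or on the smaller groups was not tested. In whole tissue, fewer cells of a type and less RNA per cell cannot be told apart.

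The 66 genes together took 1.96% to 2.09% of the normalized counts, as a mean per group, and between 1.86% and 2.11% in single libraries. Per kilobase of exon, which allows genes to be compared, the core of the fusion complex stood at the top. Snap25 had a mean level of 11999.5 normalized counts per kb, Vamp2 9590.4, Cplx2 8090.3, Syn1 8046, Syt1 6613, Cplx1 6547 and Rab3a 6221. Over the 24 libraries Cplx2 ran from 6394 to 9640.4 per kb and Syn1 from 6991 to 9215, so these neighbours in the order overlapped, while Snap25, at 10423 to 13838, overlapped only the highest Vamp2 libraries among the genes below it.

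**Figure D1:**
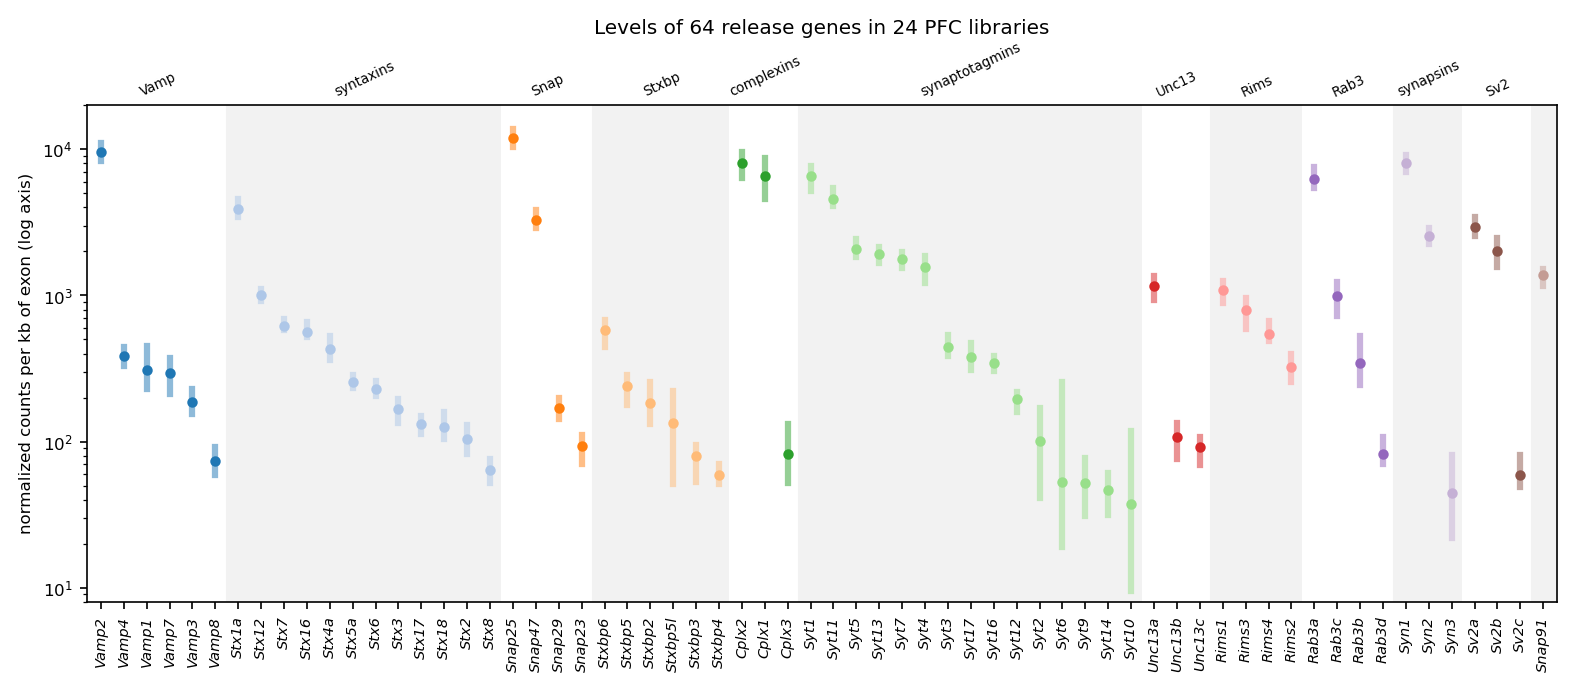
Normalized counts per kb of exon (log axis) for 64 release genes, grouped by family. Points are means over 24 libraries and bars run from the lowest to the highest library. Most families drawn have 1 or a few abundant members, led by Snap25 at 11999.5 per kb, and others that are far lower, down to Syt10 at 37.4.

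Levels were uneven within families. Among syntaxins, Stx1a of the target membrane had 3918 per kb and the endosomal Stx12 1005. Among the 15 synaptotagmins, the fast calcium sensor Syt1 was followed by Syt11 (4552), a synaptotagmin that does not bind calcium, and the alternative fast sensor Syt2 stood at 101 per kb. The priming factor Unc13a had 1169 per kb against 107 for Unc13b and 91.8 for Unc13c. The 3 lowest members were Syt14 (46.8 per kb), Syn3 (44.4) and Syt10 (37.4). Stxbp3, described below after DEX, had 79.4 per kb.

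The spread between mice of a group differed widely among the members. Their median within-group SD was 0.129 on the log2 scale, beside 0.145 for all genes tested and 0.133 for genes whose mean reached 100 normalized counts. The exceptions were Syt6, Syt10 and Stxbp5l, with SDs of 1.04, 0.889 and 0.545. Syt6 had 159, 188, 153 and 1493 normalized counts in saline-treated control mice 106, 107, 109 and 117. It had 568, 158, 174 and 142 in saline-treated PS mice 2, 28, 62 and 68. In both groups a single mouse was several times higher than the other 3. In all 6 groups the mouse with the highest Syt6 was also the mouse with the highest Syt10, Dlx1, Dlx2 and Gad1, the enzyme that makes GABA. Only Syt6 and Syt10 of the 66 members had this in 6 of 6 groups, and Syt9 had it in 5. The other GABAergic markers were mixed. Slc32a1 and Dlx6os1 were highest in the mouse with the most Dlx1 in 5 groups and Gad2 in 4. Vip and Lhx6 were so in 2 groups, Sst in 1 and Pvalb in 0.

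**Figure D2:**
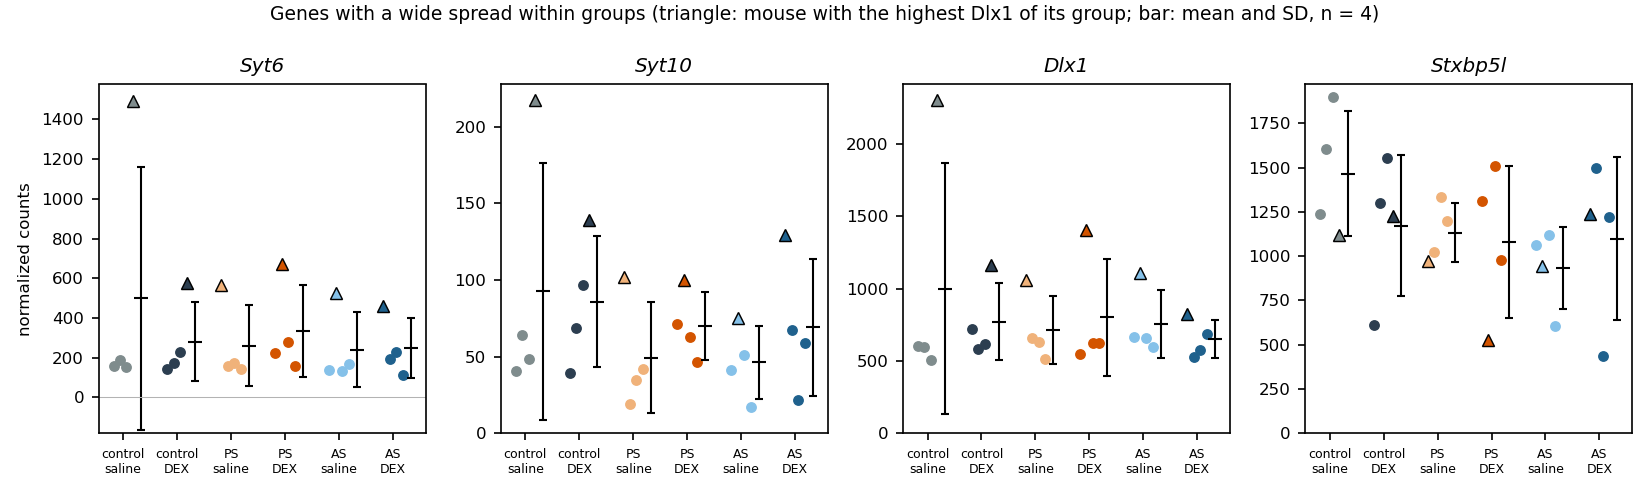
Normalized counts of Syt6, Syt10, Dlx1 and Stxbp5l per mouse in the 6 groups, with mean and SD (n = 4). Triangles mark the mouse with the highest Dlx1 of its group, which is also the highest for Syt6 and Syt10 in all 6 groups. For Stxbp5l the lowest mouse is a triangle in 3 of 6 groups and another mouse in the rest, such as DEX-treated AS mouse 60 at 437.

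A second set of libraries carried low values. Stxbp5l (tomosyn-2, which competes with Vamp2 for the target SNAREs) was lowest in DEX-treated control mouse 101, saline-treated AS mouse 44, DEX-treated PS mouse 34 and DEX-treated AS mouse 60, with 611, 603, 525 and 437 normalized counts. The other libraries of these 4 groups ran from 947 to 1552. The mice with the lowest Stxbp5l of their group were also lowest in Syn3, Stxbp4, Unc13a, Rims1 and Rims2 in 6 of 6 groups. Each of these 5 members was picked out after its values were seen. Among 66 members, 8 shared the lowest mouse with Stxbp5l in 0 of 6 groups. DEX-treated AS mouse 60 was the lowest of its group for 31 of 66 members and the highest for 21.

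Group differences were then tested across all 6 groups at once. By the moderated F test of limma (Benjamini-Hochberg adjusted p under 0.1, over all genes tested), 10 of 66 members differed among groups, or 15.2%, beside 14.9% of all genes tested. They were Stxbp3, Syn3, Syt2, Rims2, Syn1, Vamp1, Stx2, Cplx1, Syt16 and Vamp2. They are vesicle SNAREs (Vamp1, Vamp2), a target SNARE (Stx2), an SM protein (Stxbp3), a complexin, synaptotagmins, an active zone scaffold (Rims2) and a pair of synapsins. Without the 6 libraries with the most Dlx1 the count was 4 (Stxbp3, Syn3, Syt2 and Syn1), where 7.93% of all genes passed.

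**Figure D3:**
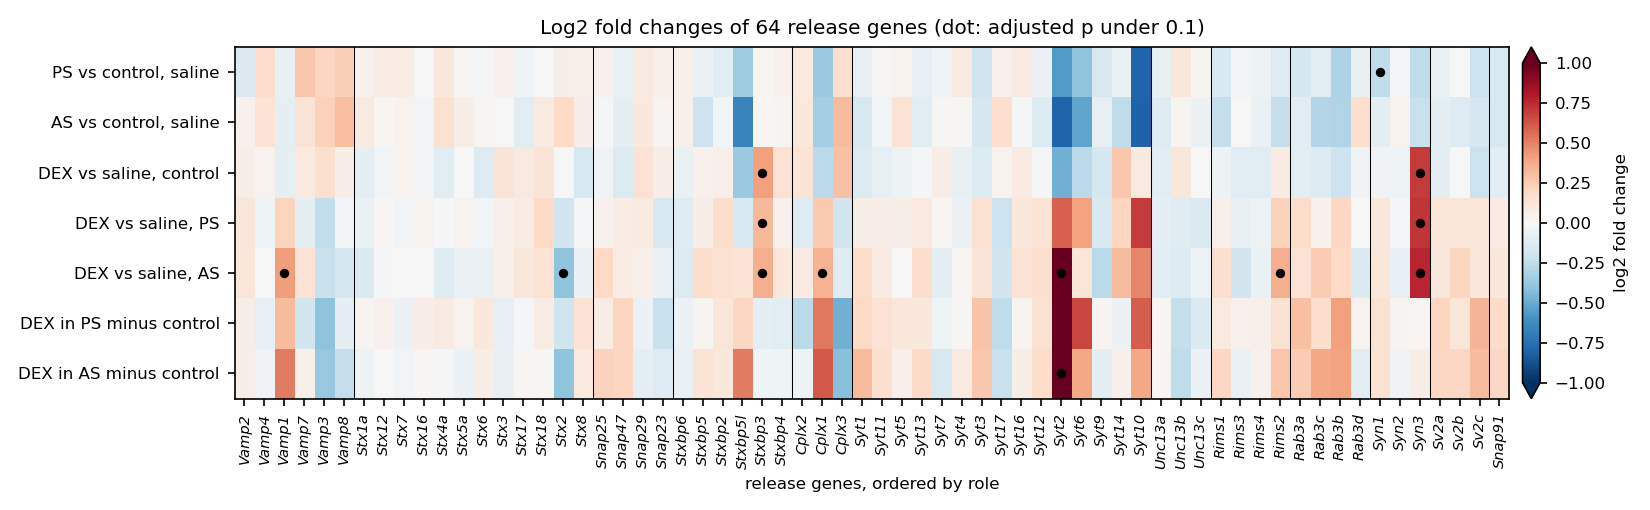
Log2 fold changes of 64 release genes (columns, by family) in 7 comparisons (rows), with the colour scale limited to 1 in each direction. Black dots mark an adjusted p under 0.1 in limma. Syn3 and Stxbp3 carry a dot after DEX in all 3 phenotypes, Syt2 has deep colours, from -0.80 in AS against control with saline to 1.54 in the interaction of AS, and most columns are pale.

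The effect of chronic stress was examined in saline-treated mice. Between PS and control animals 1 of 66 members passed the threshold, beside 1.51% of all genes tested, and it was Syn1, the abundant vesicle phosphoprotein that ties vesicles to each other and to actin (chromosome X, 20860511 to 20921004). The 4 controls had 30399, 28368, 26794 and 26518 normalized counts. The 4 PS mice had 23068, 23064, 23179 and 24595. All PS mice lay below all controls, with group values of 23476 ± 748 against 28019.7 ± 1784 (SD, n = 4). The log2 fold change was -0.25 (SE 0.07, limma, adjusted p = 0.0688). The call was lost when single libraries were left out: the adjusted p was 0.232 without control mouse 106 and 0.214 without PS mouse 2, and 0.209 with quantile normalization. It was also above the threshold without control mouse 107 or PS mouse 28 or 62, and without the 6 libraries with the most Dlx1 (log2 fold change -0.27, adjusted p = 0.263).

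Over all 66 members, the stress differences were small. In PS, 29 had a log2 fold change above 0 and 37 below it, with a median of -0.03, beside 0.00 for all genes, and 10 (15.2%) had an unadjusted p under 0.05, beside 13.2% of all genes. Core members in that range were Cplx1 at -0.37 and Rab3a at -0.18, neither past the threshold (limma, adjusted p = 0.151 and 0.326). Cplx1 passed with DESeq2, with only the groups compared and without saline-treated AS mouse 44. Syn2, the other abundant synapsin, had a log2 fold change of -0.01 (SE 0.08).

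Between AS and control animals 0 of 66 members passed in limma, beside 0.185% of all genes. Members called by edgeR and DESeq2 were also 0, beside 0.192% and 0.704% of all genes. In limma 8 members (12.1%) had an unadjusted p under 0.05, beside 11.01% of all genes. The largest of these was Syt2, the calcium sensor that in cortex is found in terminals of parvalbumin basket cells. Its values were 884, 725, 1014 and 891 normalized counts in controls and 316, 550.0, 533 and 673 in AS. The 4 AS mice lay below the 4 controls, but the log2 fold change of -0.80 had an SE of 0.24 and did not pass (limma, adjusted p = 0.242). In the same comparison Syn1 was at -0.09 (SE 0.07), Cplx1 at -0.34 and the scaffold genes Rims1 and Rims2 at -0.24 and -0.23. The comparisons of PS and AS share the control samples, and are given side by side only.

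Saline-treated AS and PS animals were compared next. In limma 0 of 66 members passed, as did 0% of all genes tested, and 3 members (4.55%) had an unadjusted p under 0.05, beside 4.79% of all genes. Members called by edgeR and DESeq2 were also 0, beside 0% and 0.0782% of all genes. Vamp2 was at 0.19 (SE 0.07) and Syn1 at 0.17 (SE 0.07) in AS relative to PS, each with an adjusted p of 0.934 in limma. The Syn1 values were 25233, 28469, 25346 and 26354 in AS, above the 4 PS mice, and the median SE of a member was 0.09.

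DEX was followed by higher Stxbp3 and Syn3 in all 3 phenotypes. Among control animals 2 of 66 members passed (3.03%, beside 6.51% of all genes tested). The count was 2 of 66 for PS (beside 5.4%) and 7 of 66 for AS animals (10.6%, beside 8.8%). Stxbp3 and Syn3 were the 2 members called in control and PS animals, and both were among the 7 of AS animals. Averaged over the 3 phenotypes, 9 of 66 members passed (13.6%, beside 15.5% of all genes), of which 8 rose and 1, Stx2, fell.

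Stxbp3 encodes Munc18c, the SM protein known for pairing with Stx4 in insulin-driven delivery of glucose transporters (chromosome 3, 108793176 to 108840526). In control animals it had 283, 355, 391 and 449.6 normalized counts with saline and 503, 454, 492 and 496 with DEX. In PS animals it had 406, 353, 344 and 382 with saline and 479, 427, 469.8 and 485 with DEX. In AS animals the saline values were 337, 344, 381 and 426, and the DEX values 433, 495, 477 and 510.1. Within each phenotype all 4 DEX-treated mice were above all 4 saline-treated mice. In log2 terms DEX changed it by 0.41, 0.33 and 0.37 (SE 0.11 in each, limma, adjusted p = 0.0226, 0.0954 and 0.0382). The mean over phenotypes was 0.37 (SE 0.06, limma, adjusted p = 0.00011), it was 0.43 without the 6 libraries with the most Dlx1, and it passed in every setting tried. The calls within single phenotypes were less firm: that of control animals was lost without saline-treated mouse 106 (adjusted p = 0.110), that of AS without saline-treated mouse 8 or 14 or DEX-treated mouse 42 or 72, and that of PS without any 1 of 16 libraries. Its partner Stx4a had log2 fold changes of -0.10, -0.02 and -0.12, none past the threshold.

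Syn3, the least abundant synapsin, known from developing neurons, rose most in the averaged response (chromosome 10, 86055125 to 86498896). Controls had 490.0, 438, 481 and 386 normalized counts with saline and 602, 783, 845 and 698 with DEX, with no overlap. PS animals had 340.2, 358, 452 and 356 with saline and 757, 423, 795 and 564 with DEX, where mouse 34 (423) lay below saline-treated mouse 62 (452). AS animals had 446, 406, 434 and 270.2 with saline and 676, 759, 349 and 988 with DEX, where mouse 60 (349) fell among the saline values. In log2 terms the change was 0.70, 0.72 and 0.76 (SE 0.23 each, limma, adjusted p = 0.0916, 0.0930 and 0.0506), and 0.73 (SE 0.13, adjusted p = 0.000375) for the mean over phenotypes. The mean response passed in every setting tried, but the calls within single phenotypes were lost without any 1 of 14 libraries for controls, of 15 for PS and of 4 for AS animals (saline-treated mouse 44 and DEX-treated mice 38, 42 and 72). All 3 were also lost without the 6 libraries with the most Dlx1, that of PS with library size as a covariate, and that of AS with only the groups compared. Without DEX-treated mouse 60 the AS value was 1.06.

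Other values moved with Syn3. The 3 mice with the lowest DEX values, 101 among controls, 34 and 60, are those with low Stxbp5l. Of the exon bases of Syn3, 1733 (14.1%) are shared with Timp3, which lies within it on the opposite strand, and the libraries were strand-specific but the strand setting of the counting is not given in the sources used here. Timp3 had log2 fold changes of 0.67, -0.01 and -0.05 in the DEX comparisons of control, PS and AS animals. The part of Timp3 reads in the Syn3 value was not tested.

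**Figure D4:**
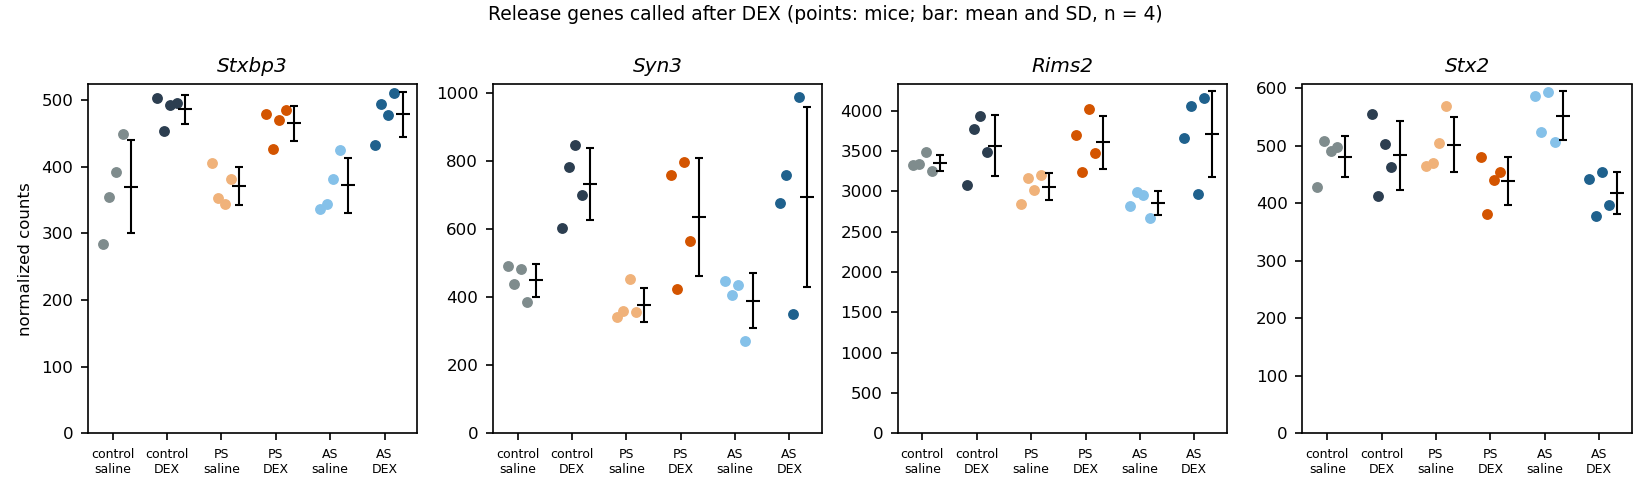
Normalized counts of Stxbp3, Syn3, Rims2 and Stx2 per mouse in the 6 groups, with mean and SD (n = 4). For Stxbp3 the DEX-treated mice are above the saline-treated mice within each phenotype, for Syn3 mice 34 and 60 are the low DEX values, and for Stx2 only the AS groups are apart.

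Among active zone and SNARE genes, Rims2 rose and Stx2 fell. Rims2, the scaffold that links Rab3 vesicles to Unc13 and calcium channels (chromosome 15, 39198261 to 39684372), had 2825, 2995, 2956 and 2666 normalized counts in saline-treated AS and 3659, 4054, 2971 and 4155 in DEX-treated AS mice. All but mouse 60 (2971) were above the saline range. Its log2 fold change was 0.36 in AS (SE 0.09, limma, adjusted p = 0.0136), 0.23 in PS and 0.09 in control animals (adjusted p = 0.184 and 0.741), and 0.23 for the mean (adjusted p = 0.00315). The paralogues Rims1, Rims3 and Rims4 had mean responses of 0.05, -0.12 and -0.08, and none passed in limma with all 24 libraries.

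Stx2, a plasma membrane syntaxin of many cell types (chromosome 5, 128984557 to 129008574), had 586, 524, 593 and 507 normalized counts in saline-treated AS and 442, 379, 455 and 397 in DEX-treated AS mice. The AS groups did not overlap. The log2 fold change was -0.40 (SE 0.10, limma, adjusted p = 0.0123), against -0.19 in PS and 0.00 in control animals, neither past the threshold, and -0.20 for the mean (adjusted p = 0.0189). The difference between AS and control responses, -0.40, did not pass (limma, adjusted p = 0.181). The neuronal syntaxin Stx1a had a mean response of -0.10 (SE 0.04), which did not pass in limma on the deposited values of all 24 libraries. It passed with DESeq2, with quantile normalization and without the 6 libraries with the most Dlx1. It also passed in limma without saline-treated control mouse 109 or 117, saline-treated PS mouse 2 or saline-treated AS mouse 44. The same held without DEX-treated control mouse 101, DEX-treated PS mouse 34 or DEX-treated AS mouse 60.

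Mean responses also passed for Syt16, Syt14 and Stx18. Syt16 (chromosome 12, 73997661 to 74273267) rose by 0.11 on the log2 scale (SE 0.03, limma, adjusted p = 0.0148). In PS mice it had 3071 to 3303 normalized counts with saline and 3344 to 3513 with DEX, which did not overlap. Its log2 fold change was 0.14 in AS animals, the only phenotype with an unadjusted p under 0.05 in limma. Its relative Syt14 (chromosome 1, 192891233 to 193035775), also a synaptotagmin that does not bind calcium, rose by 0.27 (SE 0.09, adjusted p = 0.0653), although saline and DEX values overlapped in all 3 phenotypes, and the call was lost without any 1 of 11 libraries. Stx18, a SNARE of the endoplasmic reticulum (chromosome 5, 38038742 to 38137765), rose by 0.16 (SE 0.05, adjusted p = 0.0358). Without the 6 libraries with the most Dlx1 neither Syt14 nor Stx18 passed (limma, adjusted p = 0.123 and 0.101). Stx18 shares 574 exon bases (12.5%) with the opposite-strand gene Nsg1, which rose by 0.09, and 908 (19.8%) with Gm42858, so reads of these genes may be split between them. With all 24 libraries in limma none of these 3 genes passed in a single phenotype, and Syt16 passed in AS with DESeq2.

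The promoters of the called genes were searched for the letters that the glucocorticoid receptor and CREB are known to bind. RefSeq (GRCm38.p6) gave 73 promoters for 57 of the 66 members. In the 250 bases before the start, the full glucocorticoid response element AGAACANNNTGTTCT was in none of them, as in all but 0.00913% of 32851 promoters. Its 6-base arm AGAACA, searched on both strands and also part of the full element, was in 7 promoters of 6 members (Rab3c, Stx2, Stx5a, Stxbp2, Sv2b and Syt2), beside 16.1% of all promoters. The cAMP response element TGACGTCA was in those of Stxbp3 and Syn1, beside 1.55% of all. These are matches of letters only. The called members with a match were Stxbp3, Syn1, Syt2 and Stx2, and only their matching promoters are shown. The other called members had no match or no promoter in the set. The upstream start of Syt2 and that of Stx2 held no match. Shown 5′ to 3′, with the match in capitals, are Stxbp3 (chr3:108840503-108840752, minus strand), Syn1 (chrX:20920919-20921168, minus strand), Syt2 (chr1:134709050-134709299, plus strand, the downstream of 2 starts) and Stx2 (chr5:128990237-128990486, minus strand, the downstream of 2 starts).
Stxbp3: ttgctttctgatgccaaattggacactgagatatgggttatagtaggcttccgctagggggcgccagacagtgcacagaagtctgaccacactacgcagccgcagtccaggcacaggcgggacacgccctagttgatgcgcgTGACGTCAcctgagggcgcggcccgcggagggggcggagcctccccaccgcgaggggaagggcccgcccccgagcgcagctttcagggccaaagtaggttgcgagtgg
Syn1: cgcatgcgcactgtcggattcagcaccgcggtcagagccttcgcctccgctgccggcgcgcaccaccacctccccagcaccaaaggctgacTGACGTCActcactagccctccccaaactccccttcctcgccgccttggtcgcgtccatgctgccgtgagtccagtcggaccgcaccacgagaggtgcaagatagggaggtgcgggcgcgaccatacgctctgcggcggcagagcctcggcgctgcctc
Syt2: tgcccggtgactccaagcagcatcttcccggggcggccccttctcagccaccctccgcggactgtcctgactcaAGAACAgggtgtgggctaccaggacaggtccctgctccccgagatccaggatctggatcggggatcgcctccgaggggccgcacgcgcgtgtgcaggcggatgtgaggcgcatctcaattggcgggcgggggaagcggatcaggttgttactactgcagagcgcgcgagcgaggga
Stx2: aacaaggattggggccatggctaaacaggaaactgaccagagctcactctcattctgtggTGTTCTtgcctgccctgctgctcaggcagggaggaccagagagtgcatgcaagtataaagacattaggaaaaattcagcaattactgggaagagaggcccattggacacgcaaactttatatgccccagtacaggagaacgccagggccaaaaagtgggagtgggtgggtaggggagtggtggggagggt
Counted from the start, the match begins at -108 in Stxbp3, -159 in Syn1, -176 in Syt2 and -190 in Stx2, where TGTTCT is the arm read on the other strand.

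After DEX, Syt2, Vamp1 and Cplx1 also rose in AS animals. Syt2 (chromosome 1, 134646677 to 134762593) had 316, 550.0, 533 and 673 normalized counts in saline-treated AS mice 8, 14, 40 and 44 and 999, 1041, 1195 and 959 in DEX-treated AS mice 38, 42, 60 and 72. The groups did not overlap, with 518 ± 148 against 1049 ± 103 (SD, n = 4). The log2 fold change was 1.06 (SE 0.24, limma, adjusted p = 0.00850), and it passed in every setting tried. In PS animals, where the saline values were 363, 706, 712 and 658 and the DEX values 989, 769, 1291 and 644, the groups overlapped, and the log2 fold change was 0.60 and did not pass (adjusted p = 0.233). In controls the values were 457, 686, 945 and 512 with DEX against 884, 725, 1014 and 891 with saline, again with overlap, and the log2 fold change was -0.48 (adjusted p = 0.352).

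Vamp1, the v-SNARE related to Vamp2 (chromosome 6, 125215551 to 125245964), had 2502, 2689, 2743 and 3516 normalized counts in saline-treated and 3530.1, 3477, 4552 and 3720.4 in DEX-treated AS mice. Saline-treated mouse 44 overlapped the DEX range. The log2 fold change was 0.42 in AS (SE 0.11, limma, adjusted p = 0.0271), 0.22 in PS and -0.10 in controls, and the AS call was lost without saline-treated AS mouse 8. Vamp2, 9590.4 per kb against 308 for Vamp1, had 0.12 in AS and did not pass (adjusted p = 0.412).

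Cplx1, the complexin that clamps and speeds fusion (chromosome 5, 108518554 to 108550024), had 10054, 14087, 11494 and 15841 normalized counts in saline-treated and 16307, 14521, 19199 and 15014 in DEX-treated AS mice, with overlap. The log2 fold change was 0.35 in AS (SE 0.12, limma, adjusted p = 0.0786), 0.26 in PS and -0.26 in controls, the last 2 not past the threshold. The AS call was lost without saline-treated AS mouse 8 or 40 or DEX-treated mouse 38 or 60, without the 6 libraries with the most Dlx1, and with quantile normalization, library size as a covariate or only the groups compared. Cplx2 had 0.08 in AS (SE 0.11).

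**Figure D5:**
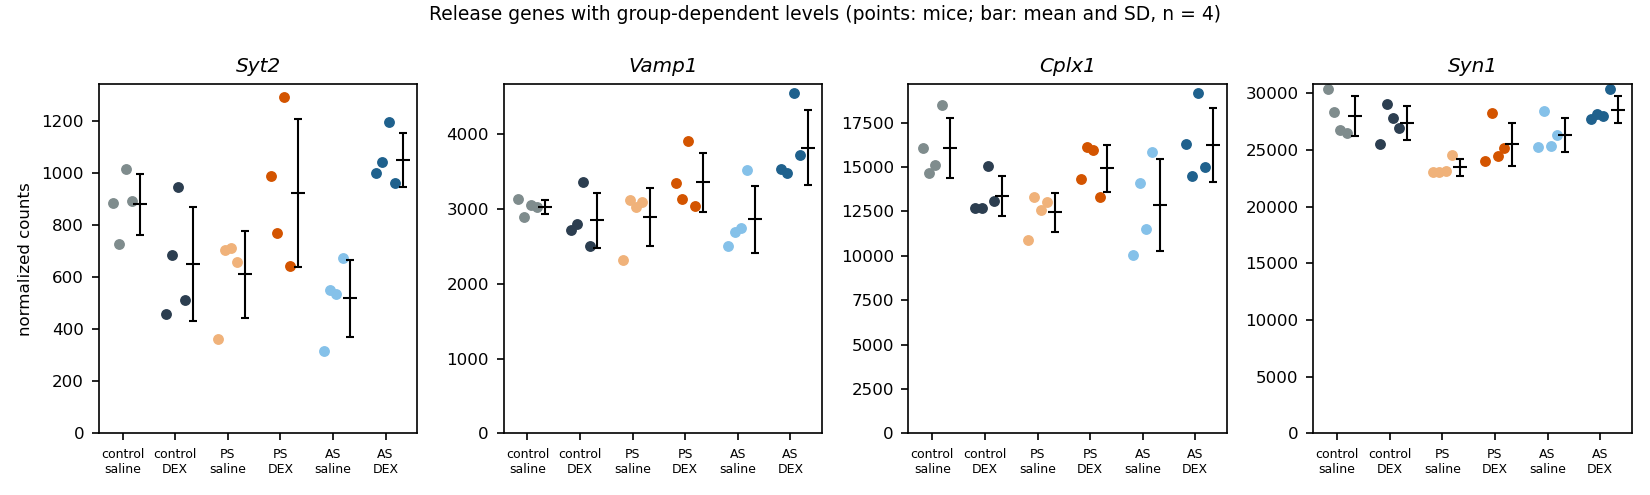
Normalized counts of Syt2, Vamp1, Cplx1 and Syn1 per mouse in the 6 groups, with mean and SD (n = 4). Syt2 is lowest in saline-treated AS (518) and highest in DEX-treated AS (1049), while among controls the DEX mean (650.3) is below the saline mean (879). Syn1 is lowest in saline-treated PS, at 23476.

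The difference between responses was tested as the interaction of phenotype and DEX. For AS, 1 of 66 members passed, beside 0.349% of all genes tested: the Syt2 response in AS exceeded that in controls by 1.54 on the log2 scale (SE 0.34, limma, adjusted p = 0.0771). In this comparison 14 of 66 members (21.2%) had an unadjusted p under 0.05, beside 13.6% of all genes. Cplx1 and Vamp1 had interactions of 0.62 and 0.52 (adjusted p = 0.111 and 0.158), which did not pass in limma. Both passed with DESeq2, and in limma when control mouse 112 (DEX) or AS mouse 44 (saline) was left out. The interactions share the response of the controls. The Syt2 call was lost without any 1 of 12 libraries, among them each saline-treated control, with library size as a covariate, and without the 6 libraries with the most Dlx1 (1.51, adjusted p = 0.274), while its value stayed between 1.32 and 1.74. For PS, 0 of 66 members passed, as did 0% of all genes tested, and 8 (12.1%) had an unadjusted p under 0.05, beside 10% of all genes. Members called by edgeR and DESeq2 in PS were also 0, beside 0% and 0.164% of all genes. The Syt2 interaction in PS was 1.08 (SE 0.34, limma, adjusted p = 0.369).

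Markers of several cell types moved in the same comparisons as Syt2. The parvalbumin gene Pvalb rose by 0.59 in AS animals after DEX (limma, adjusted p = 0.0850) and had -0.23 in controls. The sodium channel subunit Scn4b, taken from the list of striatal markers, had 0.62 in AS, -0.78 in controls and an interaction of 1.40 (limma, adjusted p = 0.0941). Over the 8 striatal markers the medians were 0.27 in AS, -0.04 in controls and 0.15 in the interaction, where Scn4b was the only 1 called. Over the 10 GABAergic markers the median log2 fold change was 0.01 in AS and -0.09 in controls, with 2 called in AS. Over the 9 oligodendrocyte markers it was 0.39 in AS, with 2 that rose, and -0.31 in controls, with 3 that fell, and their summed normalized counts ran from 20318 to 34791 in saline-treated and 32415 to 47672 in DEX-treated AS mice. Over the 9 endothelial markers the medians were -0.53 in AS, with 4 that fell, and 0.38 in controls. The part of these cell types in the Syt2, Vamp1 and Cplx1 values was not tested.

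Most of the core machinery did not pass in the DEX comparisons. The members' median log2 fold change was -0.03, 0.05 and 0.09 for the control, PS and AS phenotypes, beside medians of -0.01, 0.00 and 0.00 for all genes, and 28, 41 and 42 of the 66 were above 0. Snap25 had 70779.8, 78522, 77721 and 86509 normalized counts in saline-treated and 83361, 92357, 93974 and 89628 in DEX-treated AS mice, which overlapped. Its log2 fold change of 0.20 failed in limma over all genes tested (adjusted p = 0.137). It passed in limma over genes whose mean reached 100 normalized counts, and in edgeR and DESeq2. Syt1 had log2 fold changes of -0.14, 0.06 and 0.18 in control, PS and AS animals, Unc13a -0.12, -0.10 and -0.11, and Sv2a -0.09, 0.12 and 0.11. None of these passed, and the median SE of a member was 0.09. With all 24 libraries and all genes tested in limma, no Rab3, Unc13, Sv2 or Snap gene passed in any comparison. Snap25 did so in AS, and Unc13a in the averaged response, when saline-treated AS mouse 44 was left out.

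By family, 3 of 15 synaptotagmins (Syt2, Syt14 and Syt16), 2 of 13 syntaxins (Stx2 and Stx18), 1 of 7 Stxbp genes, 1 of 3 synapsins, 1 of 4 Rims genes and 1 of 6 Vamp genes passed in the DEX response averaged over phenotypes, where 15.5% of all genes passed. Of these 9 genes, Syt2, Syt14, Stx18 and Vamp1 did not pass without the 6 libraries with the most Dlx1, and Syt2 and Vamp1 also lost the call without any 1 of 8 and of 10 libraries. Of the 15 synaptotagmins, the median response was -0.05 in control and 0.13 in AS animals, and of the 13 syntaxins -0.01 and -0.02.

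Of 38 further genes of the release pathway in the table, outside these families, none passed between saline-treated groups or in an interaction in limma, with 0 at an unadjusted p under 0.05 between AS and PS. In PS and in AS against control 9 (23.7%) had an unadjusted p under 0.05, beside 13.2% and 11.01% of all genes. The interactions of PS and AS had 8 (21.1%) and 9 (23.7%), beside 10% and 13.6%. After DEX, Tprgl (Mover, a presynaptic vesicle protein) rose by 0.23 in control and 0.22 in PS animals and Rimbp2, which binds Rims, fell by 0.26 on the log2 scale in control and 0.28 in AS animals. The active zone gene Erc2 and the dense-core vesicle priming factor Cadps2 rose in AS animals, by 0.36 and 0.50, and the endocytic GTPase Dnm1 rose in PS animals, by 0.20. In total 2, 2 and 3 of these 38 genes passed for control, PS and AS animals (5.26%, 5.26% and 7.89%), each below the share of all genes.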

How the data were processed

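PFC RNA was measured in 24 mice, 1 strand-specific poly(A) library per mouse, in 6 groups of 4 given by the labels. The authors trimmed reads with fastp (0.20.1), aligned them to mm10 (GRCm38) with HISAT2 (2.2.1), counted them over GENCODE genes with featureCounts (Subread 2.0) and divided them by DESeq2 (1.36.0) size factors. The deposited signal values are these normalized counts. The strand setting of the counting and any sequencing batch are not given in the sources used here. The deposited tables also hold p-values and fold changes of comparisons the authors made with DESeq2. Only the presence of a p-value was used, to mark the 14060 genes as tested, and 0 columns of sample values were left unused.

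Whole reads were recovered from the steps of the values (100% whole, tolerance 0.01). In R (4.3.3), limma (3.58.1) modelled the 6 groups over all 24 libraries, after 1 was added to each normalized count and the log2 taken. Fold changes are on that scale, which understates changes of low genes. Calls had a Benjamini-Hochberg adjusted p under 0.1 over all genes tested. All limma p-values are moderated and two-sided. The fit was tested on simulated data. Mice are separate animals, and replicate pairs of a group differed by more than counting noise (chi-square per gene 5.74 to 81.8). Alternatives were pseudocount 8, a mean of 100, all 14074 genes, quantile normalization, edgeR (4.0.16) and DESeq2 (1.42.0) on recovered reads, only the groups compared, library size as a covariate, and each library left out. Leaving out the 6 libraries with the most Dlx1 was added after seeing the data.

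The members and lists, cell type markers included, were chosen with earlier results of these data known. Named members were those called in any comparison, the 10 smallest p of the F test and 11 core genes. The results of 2 members are not reported here by name or drawn, though both are in all counts and medians. Others are named for their level or spread, or as relatives, after their values were seen. Gene positions are those of the deposited tables, and exon lengths and overlaps come from a GENCODE annotation of the same build (release M21). Promoters came from RefSeq (GRCm38.p6), which had no entry for Syn3 or Rims2 in the table used.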

Additional observations from a re-analysis of the deposited data

Results flagged for a closer look

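Among 20 named members in 6 groups (120 groups of 4 mice), 12 had a single mouse whose gap to the nearest of the others, divided by the range, exceeded the critical value of 0.829. Chance flags about 1 in 20 groups. Saline-treated PS mouse 2 was low for Snap25 (74565.1 normalized counts), Syt2 (363.1) and Vamp1 (2313.8). Saline-treated control mouse 117 was low for Syt16 (2762.4) and Unc13a (13453.8), and DEX-treated PS mouse 34 was low for Unc13a (12356.7). Saline-treated AS mouse 44 was low for Syt14 (376.9). High values stood apart for Stx1a in DEX-treated control mouse 101 (10457.6) and saline-treated AS mouse 8 (12275.3), for Syn1 in saline-treated PS mouse 68 (24595.3) and DEX-treated AS mouse 72 (30357.5), and for Syn3 in saline-treated PS mouse 62 (451.5).

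The response of Syt2 to DEX differed between AS and control animals by 1.54 on the log2 scale, by the interaction term of limma (SE 0.34, adjusted p = 0.0771). The 4 DEX-treated AS mice were above the 4 saline-treated ones, and in controls the 2 treatments overlapped.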

How the results depend on the processing

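No paired analysis was possible because mouse numbers do not recur between groups. Log2 fold changes of named members were recomputed under all settings only where the unadjusted p of limma was under 0.05. Changes of sign were therefore unlikely from the start. Of the recomputed values 0 changed sign, 127 lost the call, 37 gained it and 1607 kept the same outcome. A value called in neither fit counts as the same outcome. Leaving out a library from a group outside a comparison leaves its log2 fold change as it was. The 1607 is therefore not a measure of how firm the calls are. The member calls of PS against control (1) became 0 with quantile normalization, library size as a covariate or without the 6 libraries with the most Dlx1, 2 with DESeq2 and 3 with only the groups compared. Of all genes 1.51% passed without these changes. The share was 1.47% with quantile normalization, 0.953% with the covariate, 3.07% with DESeq2 and 3.83% with only the groups compared. Leaving out 1 library gave 0 to 2 member calls. The calls after DEX in controls (2) became 1 with only the groups compared and 1 without the 6 Dlx1 libraries (0 to 2 with 1 library left out, and 0 without saline-treated control mouse 106). In PS (2) they became 0 with the covariate and 1 without the Dlx1 libraries (0 to 3). Of all genes 6.51% passed in controls and 5.4% in PS without these changes. In controls the share was 5.38% with only the groups compared and 4.52% without saline-treated control mouse 106. In PS it was 5.08% with the covariate. In AS (7) leaving out 1 library gave 4 (AS mouse 8, saline) to 11 (AS mouse 60, DEX). The averaged response (9) ranged from 6 to 13. There 15.5% of all genes passed with all 24 libraries. Without saline-treated control mouse 107 it was 7 members and 14% of all genes. Without DEX-treated control mouse 101 it was 12 members and 16.6%. The shares for most other libraries left out are not given here. The interaction of AS (1) gave 0 with a mean of 100, with the covariate and without the Dlx1 libraries, 4 with DESeq2 (Cplx1, Syt1, Syt2 and Vamp1), and 0 to 5 with 1 library left out (5 without saline-treated AS mouse 44, 4 without DEX-treated control mouse 112). The share of all genes moved too. It was 0.349% without these changes, 0.00833% with a mean of 100, 0.0498% with the covariate and 3.14% with DESeq2. Without saline-treated control mouse 117 it was 0.0284%. The F test (10) gave 4 without the Dlx1 libraries and 7 to 11 with 1 library left out. The other release genes called in any comparison (5) became 10 with DESeq2 and 3 without the Dlx1 libraries (3 to 9). No share of all genes was computed on that basis. DESeq2 also called more of all genes in every comparison, such as 3.07% against 1.51% for PS against control. Both stress contrasts of AS and the interaction of PS stayed at 0 calls in all settings run, and leaving out 1 library gave 0 to 0 for each. The causes were not tested. Every member had at least 20 reads in every library, and counting error was not separated from the spread between mice.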

Other observations

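Vamp2, the main vesicle SNARE, differed among the 6 groups in the F test of limma (adjusted p = 0.0732) although limma called it in no single comparison of all 24 libraries. The F test call was lost with quantile normalization, with library size as a covariate, without the 6 libraries with the most Dlx1 and without any 1 of 10 libraries, and DESeq2 called Vamp2 in the averaged DEX response. It had 31840.2, 33369, 31606 and 33762 normalized counts in saline-treated PS mice, the group with the lowest mean, and 40166, 38252, 41951 and 40828 in DEX-treated AS mice, the group with the highest. The 66 members together took 2.06% to 2.11% of the counts in DEX-treated AS and 1.93% to 2.01% in saline-treated AS mice, and these ranges did not overlap. They overlapped in PS (1.99% to 2.08% with DEX, 1.88% to 2.01% with saline) and in controls (1.86% to 2.04% and 1.98% to 2.08%). Abundant genes weigh most in this share. The mean of the members' centred log2 values overlapped in AS, at -0.05 to 0.09 with DEX and -0.08 to 0.02 with saline.

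Of the other marker lists, 3 of 9 astrocyte markers rose after DEX in controls, 3 rose and 1 fell in PS, and 2 rose and 2 fell in AS animals. Of 9 microglia markers 1 rose and 2 fell in controls, and 3 fell in PS and in AS. Of 5 markers of oligodendrocyte precursors 2 rose in controls and 0 were called in PS or AS (limma). Of 11 pyramidal markers 1 fell in controls, 1 rose in PS and 3 rose in AS. Of 8 striatal markers measured, 1 rose and 1 fell in controls, 1 rose in PS and 2 rose in AS. The summed counts of the striatal markers were 7901 to 8994 in saline-treated and 9637 to 10880.3 in DEX-treated AS mice.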
